A study of Homo sapiens with 24 samples.

Results

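The genes described here are 97 genes whose level in PEO4 cells was higher after 6 h of pyridostatin (PDS) than before the drug or after 2 h of it. PEO1 and PEO4 are high-grade serous ovarian carcinoma cell lines from 1 patient, established before and after resistance to chemotherapy. PDS is a small molecule that binds G-quadruplexes (G4s), folded structures of guanine-rich DNA. RNA-seq libraries came from PEO1 B cells, which carry a restored BRCA2 gene (labelled genotype BRCA2+), and from PEO4 B cells (labelled genotype WT). The paper describes a BRCA2 reversion in PEO4 as well, so functional BRCA2 is expected in both lines of the B pair. Both lines were untreated or kept in medium with 5 µM PDS for 2 or 6 h, with 3 replicates per condition. Untreated PEO1 A cells, which lack functional BRCA2 although their label reads WT, and untreated PEO4 A cells (labelled WT, with functional BRCA2) were measured in a separate table of 6 libraries. Resistance is represented by PEO4 alone, so drug resistance, BRCA2 history and any other difference between PEO1 and PEO4 cannot be told apart. The labels name no vehicle for the untreated cells.

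The members were picked by their level in the PEO4 B libraries, given in CPM, a gene's counts for each 1000000 counts of the library. A gene was taken when its mean over the 3 libraries at 6 h was at least 3 CPM and at least 1.8 times both the 2 h and the untreated mean, with a 2 h mean no more than 1.5 times the untreated mean. Of 28277 genes, 97 met this, of which 88 code for protein, 4 are long non-coding RNAs, 3 are transcribed pseudogenes, 1 is a microRNA gene and 1 had no match in RefSeq. All 97 had enough counts to be tested in the table of 18 libraries, and 96 of them in the table of 6 libraries, where INA was left out. Because the PEO4 B libraries chose the genes, their PEO4 B values are given as a description without a test. Tests are given for PEO1 B cells and for PEO4 A against PEO1 A, whose libraries the choice did not use. PEO4 A is the same line as PEO4 B, so the choice can still bear on that pair.

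G4s can stall polymerases and affect transcription, and ligands such as PDS hold them folded, which can also lead to DNA breaks. Genes that change hours after a drug include direct targets with slowly built transcripts and genes that follow earlier changes in regulators. Cells under protein damage raise heat shock proteins, chaperones and their helpers that refold or clear damaged proteins, mainly through the transcription factor HSF1 acting on short repeats in promoters. Ribosome production begins in the nucleolus with ribosomal RNA synthesis, cutting and folding.

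Untreated B libraries held 18699929 to 22375644 counts and treated ones 33260167 to 43713947, while ribosomal RNA genes took 0.217% to 0.474% of counts in untreated and 0.0163% to 0.0369% in treated libraries. Treatment thus moved together with depth and with the ribosomal RNA share, and their part in any difference from untreated cells was not tested. The 2 h and 6 h libraries were alike on both. Libraries A held 32528913 to 63882077 counts. Of 10 markers of ovarian carcinoma epithelium, 9 were over 1 CPM in PEO4 B and 8 in PEO1 B, with summed levels of 5250 to 13500 CPM. Of 5 fibroblast markers at most 2 were over 1 CPM, and their sum was 21.3 to 40.1 CPM in untreated PEO4 B libraries against 2.63 to 3.78 CPM at 6 h, whose part in the results was not tested. Sums reached at most 2.96 CPM for 3 endothelial markers and 6.68 CPM for 4 leukocyte markers. In such bulk libraries, fewer cells of a type and less RNA per cell cannot be told apart.

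The 97 genes covered a wide range of levels and mostly a narrow range of folds. Their 6 h means in PEO4 B ran from 3.07 to 1050 CPM with a median of 23.4 CPM. The 6 h mean divided by the larger of the untreated and 2 h means was at least 3 for 6 genes, from 2 to 3 for 47 and under 2 for 44, with a median of 2.01. In all 97 genes every 6 h library lay above every untreated and 2 h library of PEO4 B, a property that 16.9% of the tested genes had and that the choice itself favours. The 2 h mean was below the untreated mean in 40 genes. All 2 h libraries lay below all untreated ones in 15 genes and above them in 11. The share of all genes with such an order was not counted, and the choice limits a rise at 2 h. Nothing is therefore read from these counts. On adjusted p, 33.3% of all tested genes were higher and 32.0% lower at 2 h than untreated in PEO4 B. The replicates spread least at 6 h, where the median coefficient of variation over the genes was 3.57%, against 14.2% in untreated cells and 10.6% at 2 h. Over all genes averaging at least 1 CPM, the PEO4 B replicates also differed least at 6 h. Median absolute log2 differences between those replicates were 0.0552 to 0.0641 at 6 h, 0.0783 to 0.132 at 2 h and 0.119 to 0.166 untreated. Around the threshold on the fold, TOMM40L (1.804), STXBP6 (1.805) and FAM169A (1.806) were the nearest inside and FAM98A (1.797), LARP4 (1.797) and EIF4G2 (1.796) the nearest outside. Around the minimum level at 6 h, MIR4492 (3.071 CPM), STXBP6 (3.207 CPM) and TMEM74 (3.55 CPM) were inside and SETBP1 (2.993 CPM), AGMAT (2.901 CPM) and NEXN (2.801 CPM) outside. Around the limit on the ratio of 2 h to untreated, TMEM74 (1.492), MARCHF4 (1.466) and FAM83A-AS1 (1.463) were inside and STAMBPL1 (1.516), UAP1 (1.535) and EVA1A (1.55) outside. With CPM scaled by TMM factors in place of plain CPM the same limits gave 146 genes, 87 of them among the 97.

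MARCHF4, a membrane-bound E3 ubiquitin ligase, had the highest fold, 16.8 times the larger earlier mean. Its PEO4 B libraries gave 0.776, 1.28 and 0.352 CPM untreated, 1.39, 0.617 and 1.53 CPM at 2 h, and 21.1, 19.8 and 18.5 CPM at 6 h. The gene was thus close to 1 CPM in 6 libraries and near 20 CPM in the 3 at 6 h. Untreated PEO1 B cells held it at 26.6, 21.9 and 24.3 CPM, a level that PEO4 B did not reach at any time. In PEO1 B it was 37.7, 42 and 43.2 CPM at 2 h and 54.5, 51.5 and 53.6 CPM at 6 h, with no overlap between the 3 conditions. At 6 h the rise over untreated PEO1 B cells passed the test, with a log2 fold change of 1.28 (SE 0.132, adjusted p = 2.8e-07). At 2 h it was already 0.9 (SE 0.132, adjusted p = 1.8e-05), under the fold limit. The 6 h against 2 h difference in PEO1 B, 0.38 (SE 0.124), did not pass (adjusted p = 0.081).

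ESM1, a secreted proteoglycan also called endocan, followed at 10.2 times. PEO4 B libraries gave 2.10, 1.44 and 0.301 CPM untreated, 1.28, 0.533 and 2.62 CPM at 2 h, and 16.4, 15.0 and 13.9 CPM at 6 h. The 6 earlier libraries overlapped, and all 3 at 6 h were far above them. In PEO1 B the gene was already at 51.4, 51.6 and 47.7 CPM untreated, then 132, 142 and 128 CPM at 2 h and 176, 182 and 191 CPM at 6 h. It rose there by a log2 fold change of 1.56 (SE 0.209, adjusted p = 3.4e-05) at 2 h and of 2.01 (SE 0.21, adjusted p = 3.3e-06) at 6 h, so most of the PEO1 B difference was present at 2 h. The 6 h against 2 h difference in PEO1 B, 0.45 (SE 0.197), did not pass (adjusted p = 0.22).

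NEGR1, a cell adhesion molecule of neurons, ended at 6.33 times its earlier PEO4 B level. It was at 2.74, 7.59 and 1.36 CPM in untreated PEO4 B libraries, at 3.84, 2.86 and 3.73 CPM at 2 h and at 23.8, 26.3 and 23.8 CPM at 6 h. Untreated replicate 2 stood above the 2 h libraries, and none came near the 6 h values. In PEO1 B the values went the other way, from 31.8, 30.3 and 28.7 CPM untreated and 29.8, 29.4 and 27.4 CPM at 2 h to 19.6, 22.4 and 25.8 CPM at 6 h. The 6 h libraries were all below the others, but the difference from 2 h, −0.35 (SE 0.247), did not pass the test (adjusted p = 0.49).

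The other genes of at least 3 times were RFTN1, a lipid raft protein, BAIAP2L2, a protein that acts on membranes, and INA, a neuronal intermediate filament. RFTN1 went from 3.65, 4.39 and 2.56 CPM through 5.36, 4.04 and 5.58 CPM to 16.0, 16.0 and 15.2 CPM in PEO4 B, and its PEO1 B libraries held 25.5 to 30.7 CPM throughout. BAIAP2L2 went from 6.81, 7.38 and 4.37 CPM through 6.61, 5.30 and 7.39 CPM to 21.7, 17.7 and 19.3 CPM. Its PEO1 B libraries held at most 2.15 CPM, so here PEO4 B was the higher line at every time. INA went from 2.33, 2.14 and 1.61 CPM through 1.31, 0.477 and 1.53 CPM to 6.91, 6.80 and 4.74 CPM. In PEO1 B it had 17.4, 17.1 and 18.6 CPM untreated, 25.6, 27.8 and 26.3 CPM at 2 h and 24.0, 24.4 and 26.1 CPM at 6 h, and the difference of 6 h from untreated, 0.63, passed on its adjusted p of 0.0017 but not on fold.

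SH2D5, an adaptor protein with an SH2 domain, was at 3.52 to 5.93 CPM in the earlier PEO4 B libraries and at 16.0, 16.0 and 17.0 CPM at 6 h, with 4.93 to 6.53 CPM in all PEO1 B libraries. MMP16, a membrane-anchored metalloproteinase that cuts matrix proteins, went from 5.88 to 16.2 CPM earlier to 34.6, 34.8 and 33.3 CPM. RAP1GAP2, which switches off the small GTPase Rap1, went from 2.44 to 2.99 CPM earlier to 7.96, 6.42 and 7.31 CPM. These 3 genes shared the PEO4 B pattern from different starting levels. RAP1GAP2 also rose between 2 h and 6 h in PEO1 B, from 28.1, 27.8 and 27.5 CPM to 39.1, 38.4 and 41.2 CPM, a log2 difference of 0.51 (SE 0.0711, adjusted p = 5.7e-05) that stayed under the fold limit. SOX11, a transcription factor of development, was at 1.60 to 3.27 CPM in the earlier PEO4 B libraries and at 6.86, 6.36 and 6.82 CPM at 6 h.

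**Figure D1:**
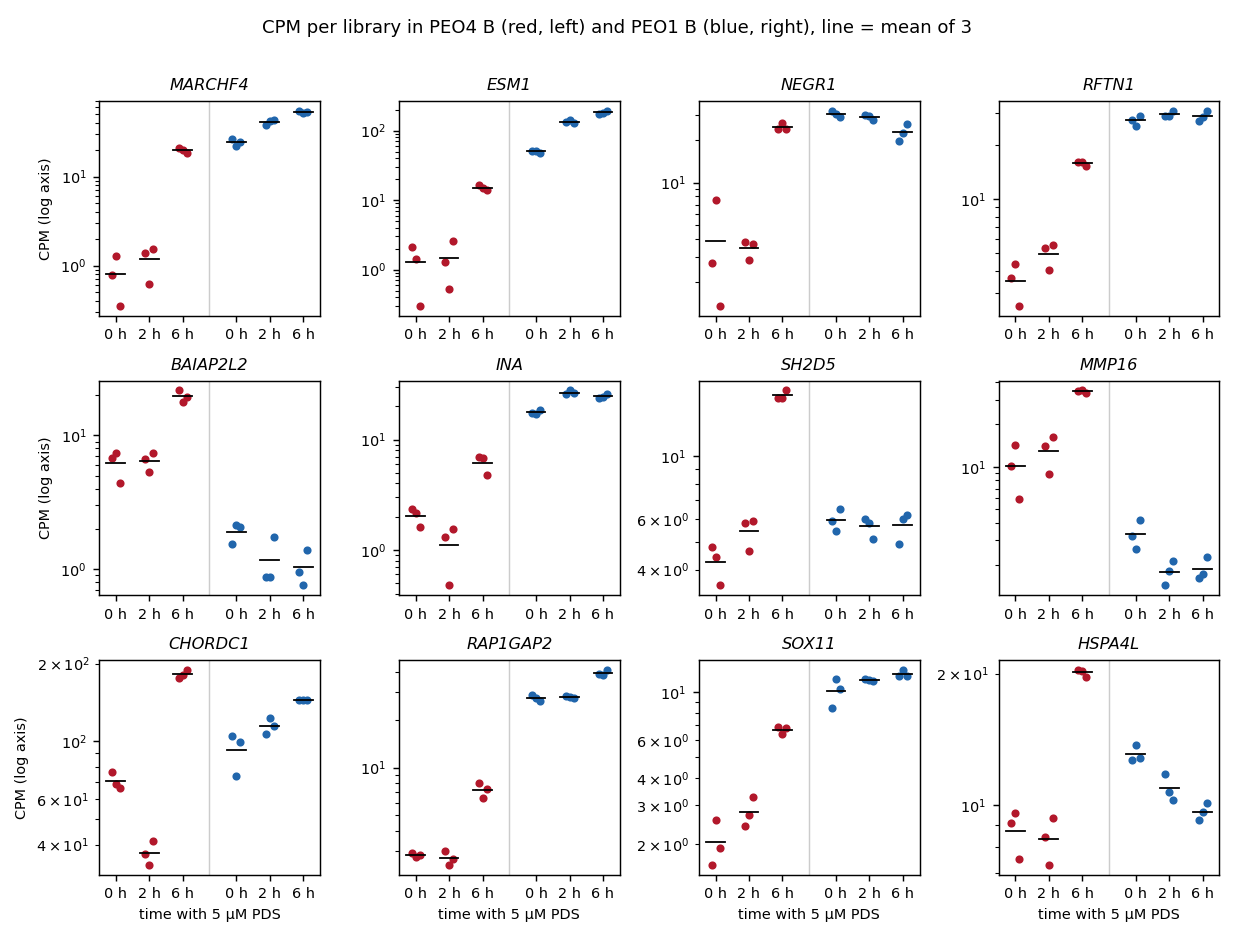
CPM (log axis) in each library for the 12 genes with the highest PEO4 B fold, PEO4 B in red on the left and PEO1 B in blue on the right at 0, 2 and 6 h, with a line through the mean of 3 libraries. In every panel the 3 red points at 6 h lie above the 6 earlier red points, while the blue points rise, fall or stay level depending on the gene.

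Since PDS binds G4s, the sequence before 3 of these genes is shown, with RefSeq start sites on GRCh38.p14. Each window runs from 250 bases before to 50 bases after the start, on the strand of the gene. Capitals mark a G4 motif, which is 4 runs of at least 3 G with 1 to 7 bases between them, or the same in C on the other strand. MARCHF4 lies at chr2:216372434-216372733 on the minus strand, RFTN1 at chr3:16513650-16513949 on the minus strand and ESM1 at chr5:54985544-54985843 on the minus strand.
MARCHF4: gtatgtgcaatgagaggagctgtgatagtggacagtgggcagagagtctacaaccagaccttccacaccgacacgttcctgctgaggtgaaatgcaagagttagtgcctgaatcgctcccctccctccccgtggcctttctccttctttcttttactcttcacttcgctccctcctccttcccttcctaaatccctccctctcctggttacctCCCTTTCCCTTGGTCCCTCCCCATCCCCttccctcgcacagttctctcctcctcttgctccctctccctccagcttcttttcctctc
RFTN1: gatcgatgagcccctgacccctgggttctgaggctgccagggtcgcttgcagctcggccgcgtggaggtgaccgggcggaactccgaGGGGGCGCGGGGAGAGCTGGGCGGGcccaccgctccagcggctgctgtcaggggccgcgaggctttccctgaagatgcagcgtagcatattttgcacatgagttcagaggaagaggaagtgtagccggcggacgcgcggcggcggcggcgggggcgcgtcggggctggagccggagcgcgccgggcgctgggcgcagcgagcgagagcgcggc
ESM1: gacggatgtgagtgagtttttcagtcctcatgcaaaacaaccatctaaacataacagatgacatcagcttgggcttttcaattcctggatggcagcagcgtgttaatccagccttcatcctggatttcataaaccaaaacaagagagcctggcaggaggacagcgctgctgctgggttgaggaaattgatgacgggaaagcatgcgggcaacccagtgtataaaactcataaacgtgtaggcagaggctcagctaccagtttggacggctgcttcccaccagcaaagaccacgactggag
MARCHF4 held 1 match, in C, starting 37 bases before the start site, and RFTN1 held 1 match in G starting 163 bases before it. In the ESM1 window these letters were not found. Of 27305 promoter windows, 6582 (24.1%) held the motif. Windows were at hand for 67 of the 97 genes (69.1%), of which 31 (46.3%) held it. The other 30 genes had no window, too many for this share to describe the 97, so a comparison of the genes with all windows is void.

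PSMD2, TCOF1, TFRC, CCDC9B and PDCD11 were among the 6 genes with the most CPM at 6 h, on a scale that is not divided by gene length. PSMD2, a subunit of the cap of the proteasome, was at 429, 464 and 340 CPM untreated, 443, 329 and 479 CPM at 2 h and 870, 878 and 832 CPM at 6 h in PEO4 B. All its 6 h libraries lay above every earlier one. In PEO1 B it was at 1040 to 1080 CPM untreated and passed on adjusted p at 6 h with a log2 difference of 0.56 (SE 0.12, adjusted p = 0.00097), present by 2 h. TFRC, the transferrin receptor that brings iron into cells, went from 143 to 197 CPM untreated and 125 to 182 CPM at 2 h to 325, 318 and 305 CPM at 6 h, while PEO1 B held 583 to 704 CPM. CCDC9B went from 109 to 147 CPM in the earlier PEO4 B libraries to 304, 300 and 312 CPM. In PEO1 B its libraries fell to 158, 168 and 165 CPM at 2 h and stood at 231, 216 and 217 CPM at 6 h, from 278, 257 and 297 CPM untreated.

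Of the genes grouped by what they are known to do, 7 belonged to heat shock and protein quality control. These groupings, which hold 63 of the 97 genes, were made after the values were seen. CHORDC1, a helper of the chaperone HSP90, was lowest at 2 h and highest at 6 h in PEO4 B, with 76.0, 68.4 and 66.4 CPM untreated, 36.8, 33.4 and 41.2 CPM at 2 h, and 176, 180 and 189 CPM at 6 h. HSPH1, a large HSP70-type chaperone, showed the same order with 155, 162 and 115 CPM, then 102, 82.1 and 102 CPM, then 262, 267 and 264 CPM. In both the 2 h libraries lay below all untreated ones. HSPA4L, a relative of HSPH1, was at 7.30 to 9.57 CPM in the earlier libraries and 20.4, 20.3 and 19.7 CPM at 6 h. HSPA1B, an inducible HSP70, was at 1.87 to 2.81 CPM earlier and 4.64, 4.78 and 5.2 CPM at 6 h. Its near-identical copy HSPA1A was listed near 0, so reads of the pair may have been placed unevenly and the HSPA1B values are uncertain. DNAJA4, an HSP70 co-chaperone, was at 4 to 6.79 CPM earlier and 12.1, 14.0 and 12.9 CPM at 6 h. ZFAND2A, a proteasome-associated protein induced by arsenite, was at 5.98 to 10.1 CPM earlier and 18.7, 19.6 and 18.2 CPM at 6 h.

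In PEO1 B the same 7 genes were not uniform. CHORDC1 was at 105, 73.6 and 99.9 CPM untreated, 107, 123 and 115 CPM at 2 h and 145, 144 and 144 CPM at 6 h. The 2 h libraries were thus not lower than the untreated ones, and its 6 h rise over untreated cells was 0.78 on the log2 scale (SE 0.109, adjusted p = 1.1e-05). CHORDC1, HSPH1, HSPA1B, ZFAND2A and PSMD2, 5 of the 7, were higher at 6 h than untreated on adjusted p, where 27.0% of all genes were, and none passed the fold limit. HSPA4L and DNAJA4 were lower, where 26.0% of all genes were. Between 2 h and 6 h none of the 7 passed the test. HSPA4L went from 12.7, 13.7 and 12.8 CPM untreated to 9.23, 9.64 and 10.1 CPM at 6 h, and DNAJA4 from 10.2, 9.25 and 9.65 CPM to 5.32, 5.69 and 6.17 CPM.

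HSF1 binds repeats of GAA and TTC, so the windows of 3 of these genes were read for GAANNTTC, which reads the same on both strands. Capitals mark the matches. CHORDC1 is at chr11:90223000-90223299 on the minus strand, HSPA1B at chr6:31827488-31827787 on the plus strand and HSPH1 at chr13:31162339-31162638 on the minus strand.
CHORDC1: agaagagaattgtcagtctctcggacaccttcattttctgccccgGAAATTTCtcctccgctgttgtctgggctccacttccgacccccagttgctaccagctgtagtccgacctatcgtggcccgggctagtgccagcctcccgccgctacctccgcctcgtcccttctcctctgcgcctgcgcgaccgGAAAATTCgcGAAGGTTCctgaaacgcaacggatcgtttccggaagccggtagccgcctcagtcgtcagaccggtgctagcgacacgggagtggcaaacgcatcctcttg
HSPA1B: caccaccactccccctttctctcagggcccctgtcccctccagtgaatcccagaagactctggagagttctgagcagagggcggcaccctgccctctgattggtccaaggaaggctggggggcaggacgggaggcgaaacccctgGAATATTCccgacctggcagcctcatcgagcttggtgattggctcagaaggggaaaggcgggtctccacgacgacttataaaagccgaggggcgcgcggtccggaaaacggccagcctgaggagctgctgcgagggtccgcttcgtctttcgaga
HSPH1: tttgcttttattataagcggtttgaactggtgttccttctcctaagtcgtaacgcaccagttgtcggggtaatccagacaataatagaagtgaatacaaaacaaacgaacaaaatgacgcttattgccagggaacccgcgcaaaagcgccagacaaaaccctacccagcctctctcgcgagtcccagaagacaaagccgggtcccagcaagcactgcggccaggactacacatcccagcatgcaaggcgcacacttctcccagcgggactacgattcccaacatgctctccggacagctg
CHORDC1 held 3 matches, 205, 60 and 50 bases before its start, and HSPA1B held 1, starting 105 bases before. None was found in the windows of the other 5, HSPH1, HSPA4L, DNAJA4, ZFAND2A and PSMD2. Of all 27305 windows 1875 (6.87%) held a match, as did 4 of the 67 windows at hand.

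A list of 24 heat shock chaperones, of which 23 could be tested and 4 are among the 97 genes, places these in their family. The contrast of 6 h against 2 h in PEO4 B helped to choose the 4 members, so they are left out of its counts. Of the 19 others, 15 were higher on adjusted p and 3 lower, where 28.9% and 31.3% of all genes were. Only the 4 members also passed the fold limit, which 2.27% of all genes did, and the choice itself favours this. In the others that rose, log2 differences lay between 0.41 for HSP90AB1, a constitutive HSP90, and 0.84 for FKBP4, an HSP90 co-chaperone. HSPA8, the constitutive HSP70, differed by 0.76 (SE 0.0765), from 1430 ± 48.5 CPM at 2 h to 2370 ± 36.8 CPM at 6 h (SD, n = 3). The 3 lower ones were the small heat shock proteins HSPB1, HSPB8 and CRYAB, at −0.64, −0.52 and −0.91. In PEO1 B over the same hours 0 of 23 passed in either direction by edgeR or by DESeq2, and 1 had an unadjusted p under 0.05. Over the 19 genes that are not members the median log2 difference was −0.02 in PEO1 B and 0.63 in PEO4 B, against 0.0 and −0.02 over all genes. At 2 h against untreated, 12 of these 19 were higher and 4 lower on adjusted p in PEO1 B, with a median of 0.39, where 26.4% and 26.2% of all genes were. In PEO4 B 10 were higher and 4 lower at 2 h, with a median of 0.24, where 33.3% and 32.0% of all genes were. The difference between the lines itself was not tested.

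**Figure D2:**
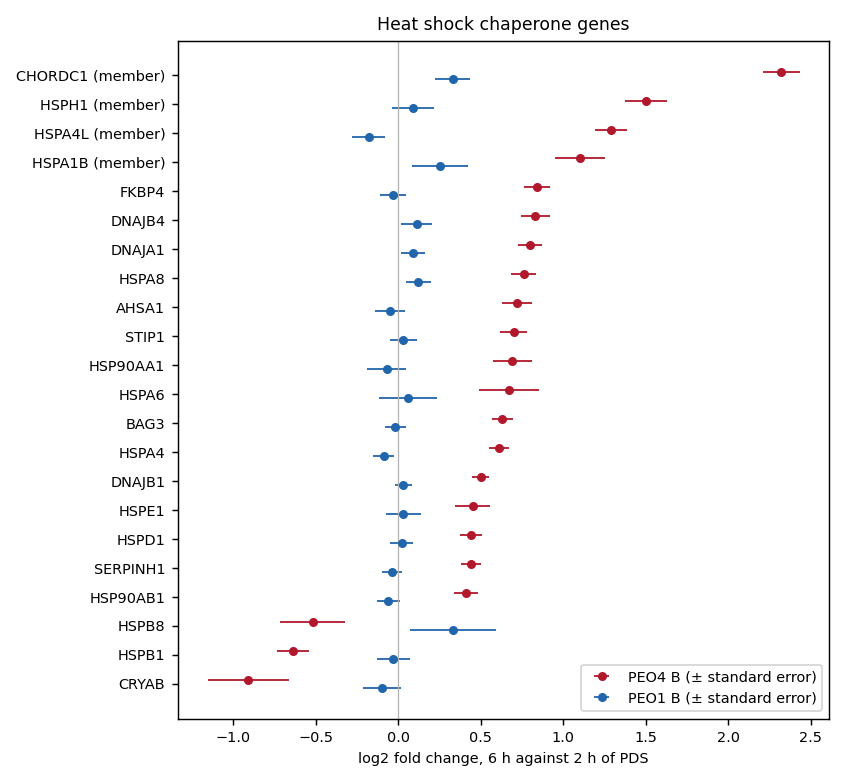
Log2 difference between 6 h and 2 h of PDS for 22 heat shock chaperones in PEO4 B and PEO1 B, with bars of 1 SE from the fit, and HSPA1A left out because it was near 0 counts. CHORDC1 reaches 2.32 in PEO4 B, and the PEO1 B points lie close to 0.

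A second group, of 8 genes, acts in ribosome production and RNA processing. TCOF1, the nucleolar protein treacle that serves ribosomal RNA synthesis, was at 155 to 254 CPM in the earlier PEO4 B libraries and at 462, 456 and 455 CPM at 6 h. POP1, a subunit of the RNA-cutting enzymes RNase P and MRP, was at 44.0 to 55.6 CPM earlier and 112, 112 and 122 CPM at 6 h, and RPP40, another subunit, at 8.44 to 14.1 CPM and then 24.1, 23.4 and 22.8 CPM. PDCD11, needed to process ribosomal RNA, was at 127 to 170 CPM earlier and 290, 297 and 304 CPM at 6 h. Each of these sat in a tight band at 6 h above every earlier library. CCDC86, RRP9 (a protein of the U3 particle), NOC3L and the tRNA methyltransferase subunit TRMT61A made up the rest, and the 8 ratios lay between 1.82 and 2.21. In PEO1 B 6 of the 8 were higher at 6 h than untreated on adjusted p (27.0% of all genes) and 0 lower (26.0% of all genes), led by CCDC86 at 0.69 (SE 0.0701, adjusted p = 1.5e-08), with 1, TRMT61A at 0.24, higher at 6 h than at 2 h (3.96% of all genes). A list of 28 ribosome biogenesis genes holds RRP9 as its 1 member. Of the 27 others, 24 were higher and 1 lower between 2 h and 6 h in PEO4 B on adjusted p, where 28.9% and 31.3% of all genes were, with a median of 0.54. At 2 h against untreated they gave 19 higher and 5 lower in PEO4 B, where 33.3% and 32.0% of all genes were, with a median of 0.28. In PEO1 B they gave 21 higher and 0 lower, where 26.4% and 26.2% of all genes were, with a median of 0.41. Between 2 h and 6 h in PEO1 B, 0 of the 28 passed with the fold limit by edgeR or DESeq2, and 2 had an unadjusted p under 0.05. On adjusted p alone 1 passed, UBTF, a factor of RNA polymerase I, at 0.27, where 3.96% of all genes were higher. The median was 0.02. Of 25 lists of pathways and families read for members, 5 held any, with FNIP2 in the lysosome list, SMURF2 in the TGF-beta list and AXL in the list of YAP targets. Between 2 h and 6 h in PEO4 B, 11 of the 30 other lysosome genes were higher on adjusted p and 11 lower (median −0.07). Of the 23 other TGF-beta genes 7 were higher and 8 lower (median −0.12). Of the 21 other YAP targets 10 were higher and 8 lower (median −0.07). The shares over all genes were again 28.9% and 31.3%.

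Matrix, adhesion and cytoskeleton genes were the next group, with 12 members and ratios of 1.83 to 10.2. COL4A1, a chain of the collagen of basement membranes, stood far apart between the lines. It was at 1.42, 1.98 and 2.21 CPM untreated and 4.58, 3.87 and 4.14 CPM at 6 h in PEO4 B, and at 181, 198 and 197 CPM untreated and 308, 303 and 341 CPM at 6 h in PEO1 B. FLNC, an actin crosslinker, was at 40.3 to 48.2 CPM in the earlier PEO4 B libraries and 90.2, 88.5 and 89.6 CPM at 6 h, while PEO1 B held 262 to 351 CPM. TUBA4A, an alpha-tubulin, was at 84.4 to 135 CPM and then 207, 207 and 217 CPM.

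Signalling was the group with the most genes, 15 members at 1.82 to 3.15 times. AXL, a receptor tyrosine kinase, was at 80.8 to 112 CPM untreated, 121 to 140 CPM at 2 h and 288, 297 and 298 CPM at 6 h in PEO4 B. In PEO1 B it was at 183, 195 and 171 CPM untreated, 238, 242 and 255 CPM at 2 h and 204, 205 and 241 CPM at 6 h. Both treated times were above untreated there on adjusted p, by 0.57 at 2 h (SE 0.0932, adjusted p = 3.9e-05) and 0.39 at 6 h (SE 0.0932, adjusted p = 0.0016), and the difference of 6 h from 2 h, −0.18, did not pass (adjusted p = 0.29). SMURF2, a ubiquitin ligase that limits TGF-beta signalling, was at 76.5 to 90.7 CPM earlier and 155, 151 and 150 CPM at 6 h in PEO4 B, and rose in PEO1 B from 216, 217 and 214 CPM untreated to 305, 287 and 330 CPM at 6 h (0.66, SE 0.0611, adjusted p = 3.4e-09). PEA15, which binds ERK kinases, behaved alike, with 142 to 166 CPM and then 286, 283 and 292 CPM in PEO4 B and 218, 212 and 212 CPM untreated against 306, 299 and 310 CPM at 6 h in PEO1 B. TRPM2, a calcium-permeable channel, was at 17.6 to 20.1 CPM and then 39.7, 41.7 and 42.5 CPM in PEO4 B. Of the 15, 7 were higher at 6 h than untreated in PEO1 B on adjusted p (27.0% of all genes) and 0 lower (26.0% of all genes). Between 2 h and 6 h, 5 were higher there (3.96% of all genes) and 0 lower, the 5 including RAP1GAP2, PEA15, SMURF2 and TRPM2. EDNRA, the endothelin A receptor, was at 1.36 to 3.90 CPM and then 4.30, 5.19 and 4 CPM in PEO4 B.

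Of 4 neuronal genes, RIMS2, a scaffold of the presynaptic release site, went opposite ways in the lines. It was at 4.33 to 7.25 CPM earlier and 13.7, 13.1 and 12.3 CPM at 6 h in PEO4 B. In PEO1 B it fell from 33.3, 33.9 and 34.0 CPM through 22.0, 22.9 and 24.5 CPM to 15.9, 15.2 and 17.7 CPM, with the step from 2 h to 6 h at −0.51 (SE 0.0815, adjusted p = 0.0003). At 6 h the lines were closer than before, with PEO1 B still above in every library. STXBP6, which binds SNARE proteins, was the lowest of the 4 at 6 h, with 3.36, 3.46 and 2.8 CPM.

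Transcription factors and coregulators gave 10 members at 1.83 to 2.38 times. SOX15 was at 4.17 to 7.54 CPM earlier and 12.3, 13 and 11.9 CPM at 6 h in PEO4 B, and in PEO1 B at 29.8, 32.4 and 28.6 CPM untreated and 52.5, 52.2 and 51.9 CPM at 6 h. MYBL1, a MYB family factor, was at 16.1 to 25.8 CPM and then 50.5, 47.5 and 49.2 CPM in PEO4 B. In PEO1 B it dropped from 25.4, 27.8 and 30.6 CPM to 13, 14.0 and 13.9 CPM at 2 h and partly returned to 17.4, 16.9 and 21.1 CPM at 6 h. The zinc finger gene ZNF514 and PPARGC1B, a coactivator of mitochondrial genes, had the same dip and return in PEO1 B, with 6 h over 2 h differences of 0.77 (SE 0.102, adjusted p = 3.3e-05) and 0.47 (SE 0.104, adjusted p = 0.0058). BCL11A, known from blood development, was at 3.17 to 5.12 CPM earlier and 9.40, 9.76 and 9.68 CPM at 6 h in PEO4 B.

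The last group joins ligases, transport and DNA genes, 7 members at 1.82 to 16.8 times with MARCHF4 at the top. ABCC9, a regulatory subunit of potassium channels, was at 1.91 to 4.08 CPM earlier and 7, 7.15 and 8.82 CPM at 6 h in PEO4 B. LIG4, the ligase that seals DNA ends in non-homologous joining, was at 3.57 to 5.75 CPM and then 10.1, 10.4 and 10.1 CPM. TERT, the catalytic subunit of telomerase, was at 6.84 to 7.28 CPM untreated, 4.91 to 5.49 CPM at 2 h and 12.8, 12.3 and 13.6 CPM at 6 h. In PEO1 B TERT fell from 6.16, 4.51 and 5.59 CPM to 3.57, 2.93 and 3.08 CPM at 6 h (−0.61, SE 0.152, adjusted p = 0.0015). The fatty acid carriers FABP5 and SLC27A4 were at 98.3, 95.4 and 99.4 CPM and at 71.3, 74.9 and 73.4 CPM at 6 h in PEO4 B.

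Whether the same 97 genes rose in PEO1 B was asked with the quasi-likelihood test of edgeR. The call needed a Benjamini-Hochberg adjusted p below 0.05 together with a log2 fold change beyond 1 in size. At 6 h against untreated, 4 genes were called higher (4.12%), where 1.29% of all 17020 genes were, and 0 lower, where 6.83% of all were. The 4 were ESM1, ABCC9, MARCHF4 and LIG4. DESeq2 called 3 higher and 0 lower, and 52 and 16 had an unadjusted p under 0.05. On the adjusted p alone, 50 of the 97 were higher (51.5%) against 27.0% of all genes, 13 were lower (13.4%) against 26.0%, and 34 passed in neither direction. The members' median log2 fold change was 0.24 and that of all genes −0.03. Scaling by library totals, which moved the median of all genes by −0.15, gave 3 higher and 2 lower (RIMS2 and KLRG2), with 37 and 22 on the adjusted p alone.

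ABCC9 went from 3.62, 2.10 and 3.12 CPM untreated to 6.64, 6.52 and 6.68 CPM at 2 h and 5.88, 6.41 and 7.34 CPM at 6 h in PEO1 B, a log2 fold change of 1.30 (SE 0.202, adjusted p = 1.1e-05) at 6 h. It was complete at 2 h, at 1.32 (SE 0.202, adjusted p = 9.4e-06). LIG4 went from 11.1, 12.5 and 11.4 CPM through 15.2, 17.2 and 17.4 CPM to 20.9, 20.2 and 22.3 CPM, with no overlap between conditions. Its log2 fold change of 1.0 (SE 0.0999, adjusted p = 1e-08) sat on the fold limit, and 8 of the alternative settings took it under.

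Between 2 h and 6 h in PEO1 B, where depth and ribosomal RNA share were alike, 1 gene was called higher, against 0.0705% of all genes, and 0 lower, against 0.0999%. DESeq2 gave 1 and 0 as well, and 34 and 2 had an unadjusted p under 0.05. The gene was CCT6P3, a transcribed pseudogene of a chaperonin subunit, at 2.25, 1.86 and 1.82 CPM at 2 h and 4.22, 3.89 and 4.71 CPM at 6 h (1.11, SE 0.145, adjusted p = 2.8e-05), and its reads may be shared with its parent gene. On the adjusted p alone 18 were higher (18.6%), against 3.96% of all genes, and 2 lower (2.06%, RIMS2 among them), against 2.98%, with a median of 0.11 against 0.0. Among those that rose was PHF23, a PHD finger protein, from 25.3, 24.3 and 23.4 CPM to 46.0, 47.6 and 45.8 CPM (0.93, SE 0.0662, adjusted p = 2.8e-09), and JPH1, a junctophilin, from 12.2, 13.7 and 14.8 CPM to 20.6, 19.6 and 22.4 CPM. All PEO1 B 6 h libraries lay above all earlier ones for 26 genes (26.8%), against 5.5% of all tested genes, and below them for 6 (6.19%), against 8.59%.

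By 2 h in PEO1 B, 2 genes were called higher, ESM1 and ABCC9, against 1.18% of all genes, and 0 lower, against 6.39%. DESeq2 also gave 2 and 0, with 41 and 23 at an unadjusted p under 0.05, and library totals gave 2 and 1 (MYBL1). On the adjusted p alone 37 were higher (38.1%) and 20 lower (20.6%), against 26.4% and 26.2%, and the median was 0.16 against −0.03.

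**Figure D3:**
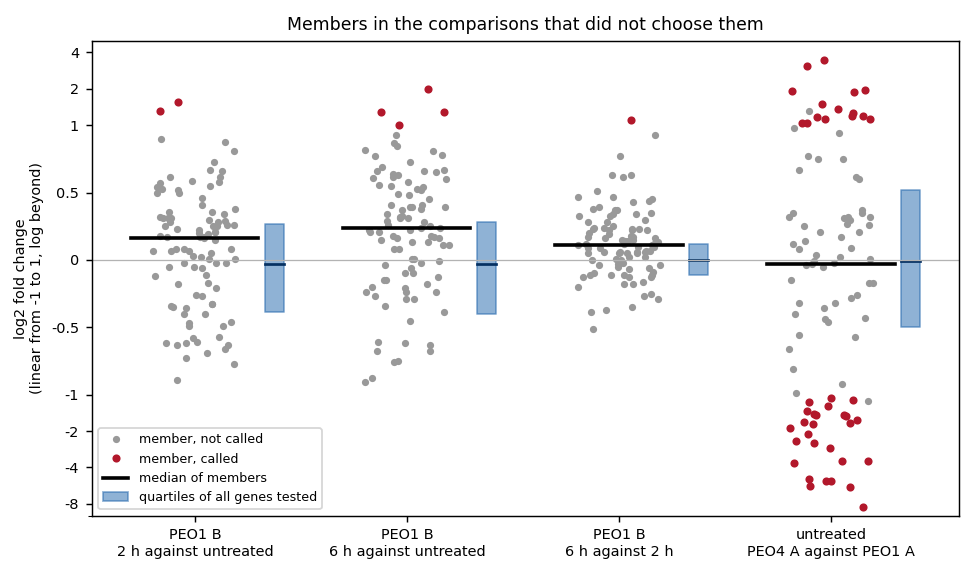
Log2 fold changes (symmetric log axis) of the genes in the 4 comparisons that the choice did not use, with called genes in red, the median in black and the quartiles of all tested genes as a blue bar. Medians are 0.24, 0.11 and 0.16 in PEO1 B at 6 h over untreated, 6 h over 2 h and 2 h over untreated, and −0.03 between the lines, where the points spread from −8.47 to 3.48.

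The starting level in each line is described here without a test because untreated PEO4 B libraries entered the choice. The untreated PEO1 B mean was above the untreated PEO4 B mean for 78 of the 97 genes, with a median ratio of 1.54. The choice favours genes that are low in untreated PEO4 B against 6 h, and the share of all genes was not counted. This count is therefore not read as a trait of the members. For 36 genes the untreated PEO1 B mean was still above the PEO4 B mean after 6 h of PDS. PLCB4, a phospholipase of G protein signalling, stayed below, at 46.9, 45.9 and 49.8 CPM at 6 h in PEO4 B against 223, 204 and 216 CPM in untreated PEO1 B. MMP16 was among those with the higher level in PEO4 B, and had 3.21, 2.59 and 4.20 CPM in untreated PEO1 B.

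**Figure D4:**
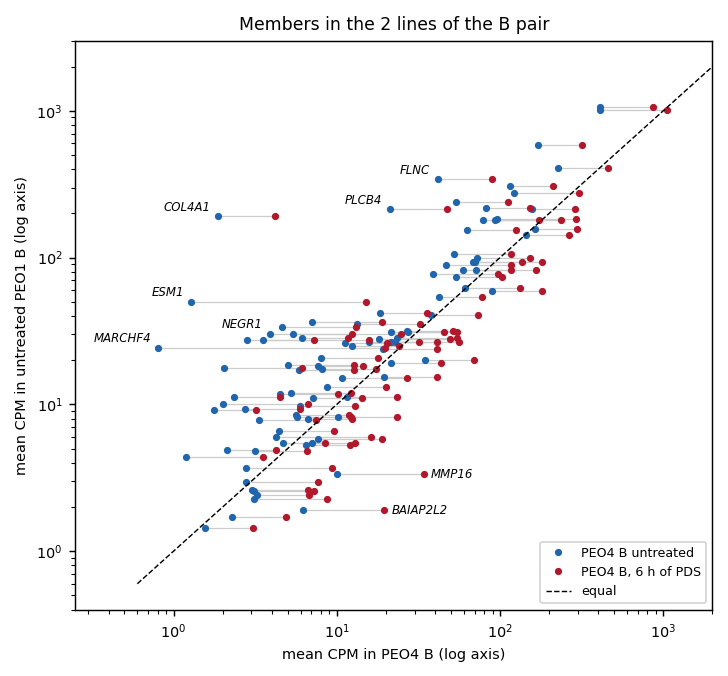
Mean CPM in PEO4 B untreated (blue) and after 6 h of PDS (red) against mean CPM in untreated PEO1 B, each of 3 libraries, on log axes, with a dashed line at equal levels. Most blue points, 78 of 97, lie on the PEO1 side of the line, and 36 red points remain there. The choice favours low untreated PEO4 B levels, and the share of all genes was not counted.

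Untreated PEO4 A and PEO1 A libraries give a separate view of the line difference, from the table of 6 libraries. Of the 96 genes tested, 15 were higher in PEO4 A (15.6%), where 12.6% of all 15882 genes were, and 27 were lower (28.1%), where 13.1% were. DESeq2 gave the same 15 and 27 in number, and 32 and 40 had an unadjusted p under 0.05. On the adjusted p alone 27 were higher (28.1%), against 30.1% of all genes, and 37 lower (38.5%), against 31.6%. The median was −0.03 against −0.01 for all genes, with quartiles of −1.18 and 0.42 against −0.5 and 0.52. The choice favours genes that are low in untreated PEO4 B, and PEO4 A is the same line. The larger share of lower genes is therefore not read as a trait of the members. COL4A1 was at 73.4, 69.6 and 66.3 CPM in PEO1 A and 0.219, 0.224 and 0.123 CPM in PEO4 A (−8.47, SE 0.158, adjusted p = 1.5e-12). FLNC was at 425, 511 and 466 CPM against 7.06, 9.96 and 9.10 CPM (−5.77, SE 0.142, adjusted p = 3.1e-11). MARCHF4 was at 2.55, 2.27 and 2.5 CPM against 0.0313, 0.112 and 0 CPM, the PEO4 A values resting on 6 counts in all, and SOX15 at 26.0, 25.8 and 23.6 CPM against 0.391, 0.701 and 1.14 CPM (−5.2, SE 0.258, adjusted p = 1.8e-08). These 4 had no overlap between the lines, with PEO1 A the higher. ESM1 at −3.56 (SE 0.645, adjusted p = 0.0011) and NEGR1 at −5.01 (SE 0.242, adjusted p = 3.9e-08) were lower in PEO4 A as well.

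In the other direction, KLRG2, a C-type lectin, was at 0.103, 0.267 and 0.340 CPM in PEO1 A and 2.54, 2.47 and 3.07 CPM in PEO4 A (3.48, SE 0.376, adjusted p = 4.7e-06). TERT was at 1.07, 0.588 and 0.964 CPM against 9.24, 6.42 and 6.92 CPM (3.08, SE 0.244, adjusted p = 3e-07), and SOX11 at 4.58, 5.85 and 4.25 CPM against 18.3, 19.8 and 18.9 CPM (1.95, SE 0.14, adjusted p = 1.2e-07). All 3 were higher in each PEO4 A library. FAM180A was at 18.4, 20.1 and 22.5 CPM against 31.5, 116 and 85.2 CPM (1.93, SE 0.542, adjusted p = 0.033), a call that 4 alternative settings lost. INA had 0 counts in all 3 PEO1 A libraries, which allows up to 0.0216 CPM over the group at 3 counts, counting error only, and 0.219, 0.729 and 0.184 CPM in PEO4 A. In the B table untreated PEO1 B held INA at 17.1 to 18.6 CPM, but the tables were made separately and their levels are not compared.

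By group, 6 of 12 matrix and cytoskeleton genes were called lower in PEO4 A and 2 higher. For this and each group below, the shares over all tested genes were 13.1% lower and 12.6% higher. Of 15 signalling genes 6 were lower and 2 higher, the lower ones including AXL at −2.76 and GPR176, an orphan receptor, at −3.53. Transcription factors gave 4 lower and 2 higher of 10, and the neuronal genes 3 lower of the 3 tested, NEGR1, RIMS2 and STXBP6. Heat shock and quality control gave 1 higher, HSPA1B at 1.05, and 1 lower, PSMD2 at −1.07, of 7, and ribosome and RNA processing 1 higher, RPP40, of 8. The group of ligases, transport and DNA genes gave 2 higher and 2 lower of 7. Each of these groups is small and was set after the values were seen, so nothing is read from their counts.

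In the annotation the genes were spread over the genome, on 22 chromosomes with at most 9 on any one. The span of the gene from its start to its end had a median of 37.2 kb (n = 96), against 26.6 kb for 16711 tested genes, and 30.2% of them exceeded 100 kb against 17.6%. Among protein-coding genes the medians were 41.9 and 31.0 kb. RINT1 and EFCAB10 overlap on chromosome 7, and RPP40 and the antisense LYRM4-AS1 on chromosome 6. The use of strand in counting is not given in the sources used here, so reads of each pair cannot be told apart. In all 56 of the genes overlap another RefSeq gene, among them MIR4492, which lies in BCL9L.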

How the data were processed

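RNA-seq was measured in 24 libraries, 6 in 1 table (PEO1 A and PEO4 A) and 18 in another (PEO1 B and PEO4 B with and without PDS). Per the study's methods and the submitters' processing notes, the authors checked reads with FastQC, trimmed them with fastp, aligned them to hg38 with STAR and counted them with featureCounts, and deposited the resulting raw counts of each gene as whole numbers. Versions, annotation and strand use are not given in the sources used here. RNA was prepared on columns with DNase digestion, and library totals are given in the report. Each table held 28277 genes, after 1 line without counts was left out of the larger table and 2 of the smaller.

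CPM were computed from each column's sum. Tests on the counts used edgeR 4.0.16 under R 4.3.3 (TMM, filterByExpr with a minimum count of 10 and total of 15, robust quasi-likelihood fit with a mean per group over all libraries of a table). This left 17020 genes with 12 residual degrees of freedom and 15882 with 4. Adjustment was by Benjamini-Hochberg over all tested genes, and p-values measure the spread between these replicates. The scripts were tested on simulated data. No replicates were duplicates of each other (chi-square per gene of 2.13 to 52.1).

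The members, the gene lists and the tests were chosen with earlier results of these data known. The genes named are the 12 with the highest fold, the 6 with the most CPM at 6 h, the members called in PEO1 B, the 4 with the widest differences in each direction between PEO4 A and PEO1 A, members of the lists and the genes next to each threshold. Every other gene named, and the grouping by role, was chosen after the values were seen. Some genes that these rules name are not reported here. Alternatives were other scalings (library totals, DESeq2's size factors), DESeq2 1.42.0, other filters and thresholds, a fit to the compared groups only, a replicate block and each library left out. Promoter windows came from RefSeq on GRCh38.p14.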

Additional observations from a re-analysis of the deposited data

Results flagged for a closer look

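In 6 of the 97 genes (6.19%), 5 of which are given here, every PEO1 B library at 6 h lay below every untreated and 2 h library of PEO1 B. This is a smaller share than the 8.59% of all tested genes. The choice of the genes had fixed the opposite order of the means in PEO4 B. The difference between the lines was not tested. The 6 h mean divided by the 2 h mean in PEO1 B was 0.816 for EDNRA, the endothelin A receptor, 0.881 for the chaperone HSPA4L, 0.784 for the adhesion molecule NEGR1, 0.703 for the presynaptic scaffold RIMS2 and 0.829 for UPK1B, a uroplakin of the urothelial surface. Divided by the untreated mean, the same genes stood at 0.865, 0.74, 0.748, 0.482 and 0.565. In PEO4 B the 6 h to 2 h ratios were 1.86, 2.41, 7.1, 2.04 and 1.85. UPK1B was at 60.8, 63.2 and 53.5 CPM untreated, 41.1, 40.7 and 39.3 CPM at 2 h and 33, 32.5 and 34.9 CPM at 6 h in PEO1 B, against 98.9, 108 and 62.3 CPM, 105, 80.3 and 108 CPM, and 184, 183 and 177 CPM in PEO4 B. By edgeR, RIMS2 alone of these 5 passed on adjusted p between 2 h and 6 h in PEO1 B. Such an order in PEO1 B was thus not particular to the 97 genes.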

How the results depend on the processing

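The choice of genes moved with its limits: 51 genes remained at a fold of 2 in place of 1.8, CPM scaled by TMM gave 146, and leaving out 1 PEO4 B library gave 78 to 114. With the adjusted p alone the PEO1 B counts were 50 higher and 13 lower (6 h over untreated), 18 and 2 (6 h over 2 h) and 37 and 20 (2 h over untreated), and 27 higher and 37 lower in PEO4 A. Library totals gave 2 lower at 6 h and 1 lower at 2 h, both over untreated. Leaving out each library gave 3 to 4 higher and 0 to 2 lower (6 h over untreated, 1 lower without 6 h replicate 2 and 2 without 6 h replicate 3), 1 to 1 and 0 to 0 (6 h over 2 h), 2 to 2 and 0 to 0 (2 h over untreated), and 13 to 17 higher and 27 to 29 lower in PEO4 A. Same-numbered libraries did not deviate together (correlations from −0.185 to 0.161), so numbers were not taken as pairs. With a replicate block the counts were 4 and 0, 1 and 0, 2 and 0, and 17 and 27. Of 319 values for single genes, 301 kept direction and side of the threshold, 18 lost the call and 0 reversed. LIG4 lost it 8 times (0.86 to 1.0; among libraries, without untreated replicate 1 or 3 or 6 h replicate 3). Between PEO4 A and PEO1 A, FAM180A lost it 4 times, HSPA1B 3 times (0.98 to 1.0), ABCC9 2 times (0.91 without PEO1 A replicate 1, 0.97 without PEO4 A replicate 3) and PSMD2 once (−1.0 without PEO4 A replicate 3). The cause was not tested. Depth limits the lowest values: ESM1 rested on 6 counts in its lowest untreated PEO4 B library, INA on 17 at 2 h, and MIR4492 on 95 in its lowest 6 h library.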
